A study of Homo sapiens with 6 samples.

Results

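Prostanoids are short-lived lipid signals that are made from arachidonic acid by the cyclooxygenases and act on neighbouring cells through a small family of G protein-coupled receptors. In colorectal epithelium the best known of them is prostaglandin E2 (PGE2), whose receptors EP1 to EP4 couple to calcium (EP1), to a fall in cyclic AMP (EP3) or to a rise in cyclic AMP (EP2 and EP4). The prostaglandin transporter carries extracellular prostaglandins into the cell, where they are broken down. The 10 genes described here are the 9 receptor genes PTGER1, PTGER2, PTGER3 and PTGER4 (EP1 to EP4), PTGFR (prostaglandin F), PTGIR (prostacyclin), PTGDR and PTGDR2 (prostaglandin D), and TBXA2R (thromboxane), together with the transporter gene SLCO2A1. They were selected by name, as the genes that the platform annotation gives alone for a probe set, out of 19775 genes with a probe set of their own. All 10 were found, with 30 probe sets among them, 10 for PTGER3 and between 1 and 4 for each other gene.

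The values come from HT29, an established human colon adenocarcinoma cell line, on HG-U133 Plus 2.0 arrays with 54675 probe sets. One group of 3 samples is labelled NS398-treated and the other group of 3 is labelled control. NS398 is a selective inhibitor of cyclooxygenase-2 (COX2), and per the methods of the study all 6 samples were kept in serum-free medium, the treated ones at the highest of several NS398 doses and the controls with the solvent DMSO alone. Blocking COX2 lowers the synthesis of prostanoids, and the question here was how the transcripts of their receptors and transporter stood in both groups. Directions follow the deposited labels. For the genes named here whose direction the study's array results also give (PTGER2, PTGER4, PTGS2, FOS, DUSP1, ARRB1 and VEGFA) they are opposite to it. That comparison is with its RNA results on arrays alone and leaves out its measurements of COX2 protein. Whether the labels or the listed contrast run the other way could not be settled from these sources, and if the labels do, every rise given here, that of PTGER1 included, is a fall and every fall a rise. The signals are on a linear scale, the median of an array was 65 to 80.2, and the number of arrays limits the precision. Replicates are called biological in the study, but how cultures were divided among arrays is not given, so a p-value covers only the spread among these samples, which may be technical.

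The epithelial identity of the cells was checked with 12 markers. Of these, 8 lay above background on all 6 arrays, among them EPCAM, CDH1, KRT8 and KRT18. The intestinal transcription factor gene CDX1 lay above background on none, CDX2 on 1 array of each group and the intestinal cadherin gene CDH17 on 1 NS398 array only. GPA33, an intestinal surface antigen gene, lay above background on all 3 NS398 arrays and on 0 control arrays. By limma with variance trend 3 of the 12 were higher in NS398 arrays and 1 lower, where 10.1% of all genes passed. The log2 difference was 1.15 for KRT20 (adjusted p = 1.69e-04), 0.38 for LGALS4 (0.0147) and -0.71 for VIL1 (0.009). GPA33, whose control arrays give only an upper limit, rose at least 1.43-fold over background (limma with variance trend, adjusted p = 0.0464). The background level of an array was set as the 95th percentile of the signals of 163 probe sets for olfactory receptors, bitter taste receptors and keratin-associated proteins. These families were taken as mostly silent in a colon epithelial cell, and whether each of their genes is silent in HT29 was not tested. It was a signal of 68.8 to 89.6 in control and 75.7 to 93.8 in NS398 arrays. Array medians were on average 0.12 higher (log2) in the NS398 group. RNA integrity was read from the 3-prime over 5-prime signal ratio of ACTB. This ratio averaged 1.29 ± 0.03 over the control samples and 1.56 ± 0.13 over the NS398 samples (SD, n = 3 per group). The two-sided exact permutation test gave p = 0.1, the smallest value that 3 against 3 arrays allow. For GAPDH the same ratio was 1.03 ± 0.06 and 1.10 ± 0.09 (exact permutation p = 0.5, n = 3 per group). The control probe set for 18S ribosomal RNA had signals of 3453.4 to 4856.4 in control and of 23625.3, 12396.9 and 4825.4 in NS398 replicates 1, 2 and 3. The part of these measures in the results that follow was not tested.

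Most probe sets of the family were dim in these cells. Of the 30 probe sets, 21 lay above background on no array and 0 on all 6 arrays, whereas 40.9% of all probe sets on the array lay above it on every array and 42.1% on none. By the brightest probe set of each gene, 4 of the 10 genes lay above background on all 3 arrays of a group, against 57.6% of all genes, and 3 of the 10 on no array, against 32.7% of all genes. PTGER2 and PTGER4 did so in the control group, and PTGER1 and TBXA2R in the NS398 group. PTGFR, PTGDR and SLCO2A1 had no value above background on any array. In a bulk sample, fewer cells that express a receptor and less of its RNA per cell cannot be told apart.

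**Figure D1:**
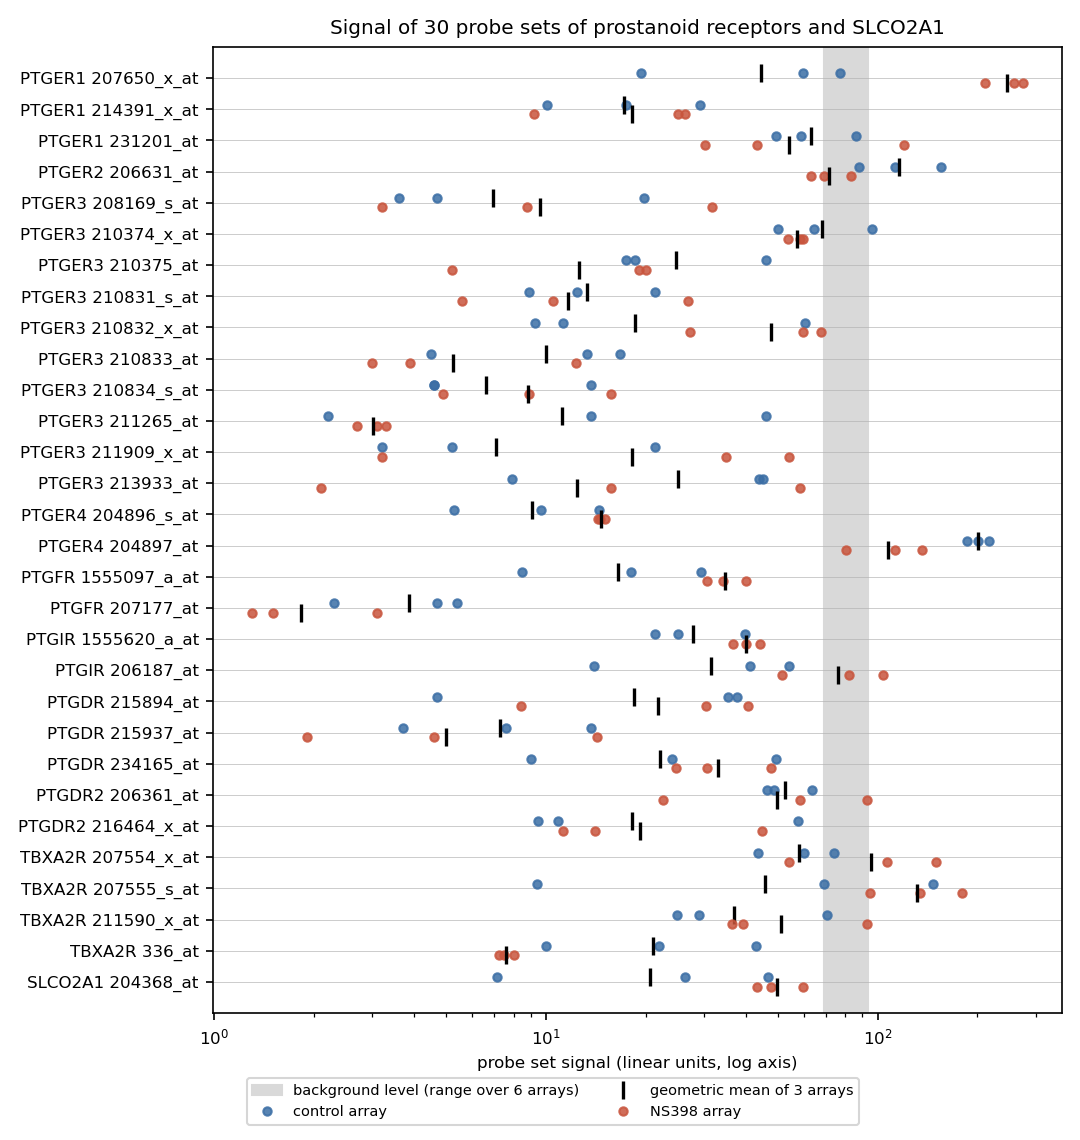
Signal of each of the 30 probe sets (rows, gene and probe set name) on the 6 arrays, on a log axis in linear signal units. Blue points are control and red points NS398 arrays, black ticks are geometric means of 3 arrays, and the grey band spans the background levels of the 6 arrays (68.8 to 93.8). PTGER4 204897_at in control arrays and PTGER1 207650_x_at and TBXA2R 207555_s_at in NS398 arrays stand wholly to the right of the band (the lowest TBXA2R value, 94.6, only just), and most probe sets stand to its left.

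The upstream sequences of the 4 detected receptor genes are shown because these are the genes whose signals the comparison can read. Sequences come from RefSeq (GRCh38.p14), which gave a promoter for 6 of the 10 members, and not for PTGER3, PTGIR, PTGDR2 and SLCO2A1. Each line holds the 250 bases before the annotated start, 5′ to 3′ on the strand of the gene, with capitals for the GC box (GGGCGG, read on both strands), the motif of SP1-like factors. PTGER1 lies on the minus strand at chr19:14475355-14475604, PTGER2 on the plus strand at chr14:52314062-52314311, PTGER4 on the plus strand at chr5:40679665-40679914 and TBXA2R on the minus strand at chr19:3606876-3607125.
PTGER1: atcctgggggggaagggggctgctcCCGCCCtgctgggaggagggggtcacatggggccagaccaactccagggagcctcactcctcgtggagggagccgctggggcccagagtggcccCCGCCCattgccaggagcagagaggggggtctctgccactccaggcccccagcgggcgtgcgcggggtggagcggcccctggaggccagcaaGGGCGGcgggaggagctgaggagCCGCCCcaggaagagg
PTGER2: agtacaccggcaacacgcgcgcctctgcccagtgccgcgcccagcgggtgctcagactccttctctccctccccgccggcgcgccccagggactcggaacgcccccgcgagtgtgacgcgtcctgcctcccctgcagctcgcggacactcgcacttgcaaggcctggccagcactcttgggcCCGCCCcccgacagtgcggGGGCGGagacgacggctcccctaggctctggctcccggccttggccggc
PTGER4: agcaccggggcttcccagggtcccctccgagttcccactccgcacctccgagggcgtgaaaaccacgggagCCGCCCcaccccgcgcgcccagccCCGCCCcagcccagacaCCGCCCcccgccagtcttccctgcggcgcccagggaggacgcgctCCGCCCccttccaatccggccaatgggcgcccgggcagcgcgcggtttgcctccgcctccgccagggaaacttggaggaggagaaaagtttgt
TBXA2R: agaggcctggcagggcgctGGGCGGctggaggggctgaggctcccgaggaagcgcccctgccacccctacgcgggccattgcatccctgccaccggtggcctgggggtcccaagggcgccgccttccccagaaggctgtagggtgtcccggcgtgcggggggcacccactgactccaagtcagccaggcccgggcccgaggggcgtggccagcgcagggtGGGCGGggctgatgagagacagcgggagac

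The 4 sequences are alike in composition. G and C make up 74% of the PTGER1 window, 74% of the PTGER2 window, 72.8% of the PTGER4 window and 74.4% of the TBXA2R window, against a median of 58% over 35116 windows of the same length. The GC box was found 4 times in PTGER1, 2 times in PTGER2, 4 times in PTGER4 and 2 times in TBXA2R, and in 42.6% of all windows. CpG pairs, the sites of DNA methylation, numbered 12 in PTGER1, 28 in PTGER2, 26 in PTGER4 and 18 in TBXA2R. The full cAMP response element (TGACGTCA), present in 1.65% of all windows, and the letters TATAAA, present in 10.7%, were found in none of the 6 member windows.

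PTGER1 encodes EP1, the PGE2 receptor that raises cytosolic calcium, and it was the member with the clearest difference. Its probe set 207650_x_at had signals of 59.4, 77 and 19.4 in control replicates 1, 2 and 3 and of 257.2, 275.1 and 210.9 in NS398 replicates 1, 2 and 3. Every NS398 array lay above every control array, and above background, where no control array did. The difference, NS398 minus control on the log2 scale, was 2.46 ± 0.48 (SE, 95% confidence interval 1.41 to 3.52, n = 3 per group, limma with variance trend, Benjamini-Hochberg adjusted p = 0.0105 over all probe sets). Since the control arrays give only an upper limit, the mean rise is best read as at least 3.18-fold, the NS398 mean over the background level of the control arrays. That bound takes no account of the spread among arrays and is not a confidence limit. It did not pass plain limma, whose variance does not follow the signal (adjusted p = 0.161), nor without NS398 replicate 1 (adjusted p = 0.0547) or NS398 replicate 2 (adjusted p = 0.0571).

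The other probe sets of PTGER1 did not show this rise. Probe set 214391_x_at had signals of 10.1, 29.2 and 17.4 in control and 25, 26.2 and 9.2 in NS398 arrays, all under background. Probe set 231201_at had signals of 49.4, 86.2 and 58.8 in control and 120, 43.3 and 30.1 in NS398 arrays, with overlapping groups and a difference of -0.23 (95% interval -1.49 to 1.03). The mean over the 3 probe sets differed by 0.77 (adjusted p = 0.445). In the naming of the platform the suffix x_at marks probe sets with probes that can bind other transcripts, and whether another transcript contributes to 207650_x_at was not tested.

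PTGER4 encodes EP4, a PGE2 receptor that raises cyclic AMP and is present along the intestinal epithelium. Its probe set 204897_at had signals of 217, 185.8 and 200.2 in control and 80.3, 113.1 and 136 in NS398 arrays. The controls were tightly grouped, all above background, and the NS398 arrays all lay below them, with replicate 1 under background. The mean signal was 1.87-fold lower in NS398 arrays (log2 difference -0.90 ± 0.29, SE, 95% interval -1.53 to -0.28), which missed the threshold (limma with variance trend, adjusted p = 0.0962). It passed when testing was limited to probe sets whose mean log2 signal exceeded 7 (adjusted p = 0.0411, where 21% of 22399 probe sets passed) and when signals under background were raised to that level (adjusted p = 0.0324, where 18% passed). The second probe set, 204896_s_at, stayed between 5.3 and 15.1 on all 6 arrays, under background.

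PTGER2 encodes EP2, the other PGE2 receptor that raises cyclic AMP. Its only probe set, 206631_at, had signals of 88, 155.4 and 113.2 in control and 63, 68.8 and 83 in NS398 arrays. All control arrays and NS398 replicate 3 lay above background, and the groups did not overlap, although control replicate 1 and NS398 replicate 3 lay close together. The mean was 1.63-fold lower in NS398 arrays (log2 difference -0.70 ± 0.36, SE, 95% interval -1.50 to 0.09, limma with variance trend, adjusted p = 0.341).

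TBXA2R encodes the thromboxane receptor, known from platelets and smooth muscle. Its probe set 207555_s_at had signals of 69, 147.2 and 9.4 in control and 134.4, 179.5 and 94.6 in NS398 arrays. All NS398 arrays lay above background, but the control arrays ranged from far below it to a value inside the NS398 range, and the difference of 1.53 (95% interval -0.26 to 3.31) missed the threshold (limma with variance trend, adjusted p = 0.36). Probe set 207554_x_at gave 59.8, 43.6 and 74 in control and 150.3, 106.7 and 54.1 in NS398 arrays, again with overlap (difference 0.72, interval -0.31 to 1.75). The other pair of probe sets pointed in opposite directions under background. For 211590_x_at the difference was 0.47, and 336_at had signals of 42.9, 21.9 and 10 in control and 7.2, 7.5 and 8 in NS398 arrays (difference -1.48). Of 7 measured platelet and megakaryocyte markers only GP1BA lay above background on all 6 arrays, and the summed signal of the list was 266 to 580.9 in control and 397.7 to 579.6 in NS398 arrays.

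**Figure D2:**
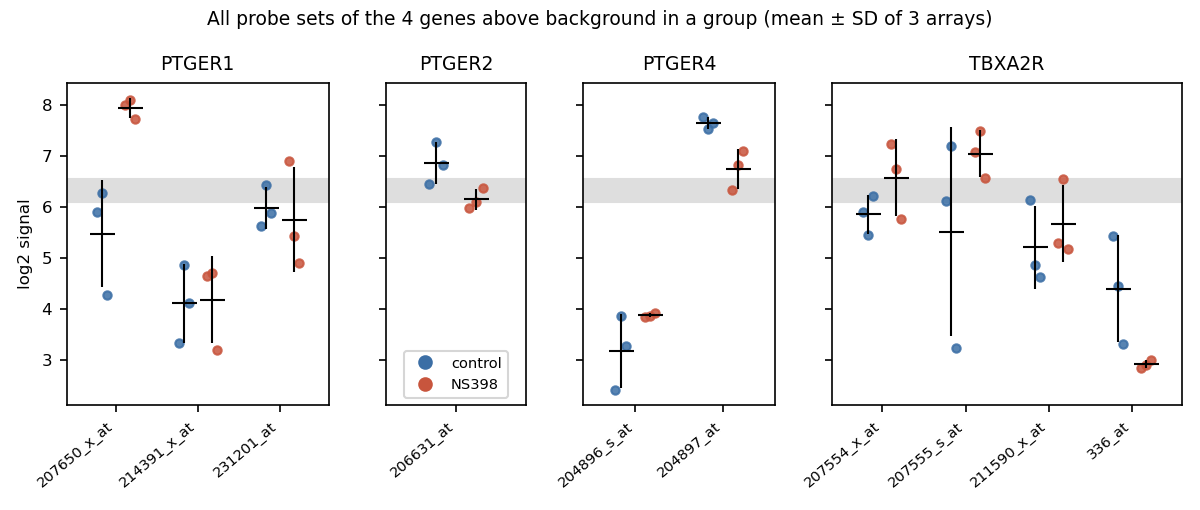
Log2 signal (vertical axis) of every probe set of the 4 genes with a probe set above background in a group. Points are arrays, blue for control and red for NS398, black bars are the mean ± SD of 3 arrays, and the grey band is the range of background levels. The rise of PTGER1 is seen in 207650_x_at and not in 214391_x_at or 231201_at, PTGER2 and PTGER4 204897_at stand lower in NS398 arrays, and the control arrays of TBXA2R 207555_s_at spread widely.

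PTGER3 encodes EP3, the PGE2 receptor that lowers cyclic AMP and is made in several splice forms that differ in their tail. Its 10 probe sets ranged from a signal of 2.1 to 96.3, and the only value above background was that of 210374_x_at on control replicate 2 (96.3). This probe set had signals of 50.2, 96.3 and 64.5 in control and 59.7, 58.2 and 53.5 in NS398 arrays, so that the NS398 arrays lay within the control range. The differences of the 10 probe sets were above 0 for 4 and below 0 for 6, from -1.89 to 1.37, and the lowest adjusted p among them was 0.417.

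The receptors for the other prostaglandins gave no difference past the threshold. For PTGIR, the prostacyclin receptor gene, 206187_at had signals of 54.1, 14 and 41.3 in control and 82.1, 51.4 and 103.9 in NS398 arrays, with NS398 replicate 3 alone above background. The difference was 1.27 (95% interval -0.09 to 2.63, adjusted p = 0.311), and 1555620_a_at had a difference of 0.54, also with overlap. The 2 PTGFR probe sets (prostaglandin F receptor) had differences of opposite sign far below background (1.07 for 1555097_a_at and -1.09 for 207177_at), on signals of 1.3 to 40.

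PTGDR encodes DP1, which raises cyclic AMP, and PTGDR2 encodes DP2, the chemoattractant receptor of T helper cells and eosinophils. The 3 PTGDR probe sets had signals of 1.9 to 49.5 and differences of -0.54 to 0.58, and the 2 PTGDR2 probe sets had signals of 9.5 to 93.2 and differences of -0.08 and 0.09. Only NS398 replicate 1 of PTGDR2 206361_at (93.2) lay above background. The intervals were wide, -1.38 to 1.23 for 206361_at and -1.20 to 2.37 for PTGDR 234165_at, so that a change of 2-fold in either direction lay within them. Of 10 measured leukocyte markers 6, among them PTPRC, CD3E and CD14, were under background on every array, whereas LYZ, CD79A and ITGAM were above it on all control arrays.

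SLCO2A1 encodes the prostaglandin transporter. Its probe set 204368_at had signals of 7.1, 46.6 and 26.3 in control and 47.7, 59.6 and 43.4 in NS398 arrays, none above background. The groups overlapped through control replicate 2, and the difference of 1.28 (95% interval -0.45 to 3.00) missed the threshold (limma with variance trend, adjusted p = 0.44). With all control arrays under background, a fall could not be measured.

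Taking the family as a whole, 1 of the 30 probe sets passed the variance-trend test, where 6.43% of all probe sets passed. Counted by the brightest probe set of each gene, 1 of 10 genes passed, PTGER1, where 10.1% of all genes passed. By plain limma 0 of 30 passed, where 0.0439% of all probe sets did, and by the statistic of SAM 0 passed as well. An unadjusted p under 0.05 was given to 2 of the 30 by the variance-trend test, against 18.5% of all probe sets, and to 4 by plain limma, against 14.6%. The groups did not overlap in 5 of the 30 probe sets, 2 higher and 3 lower in NS398 arrays, where 24.1% of all probe sets did not overlap (13.4% higher and 10.8% lower), and 2 of these 5 (PTGFR 1555097_a_at and TBXA2R 336_at) were above background on no array. Each of these shares is near or below that of the whole array. The median difference was 0.83 over the 10 genes and 0.16 over the 30 probe sets, against 0.06 over all genes and 0.06 over all probe sets. Since the members were mostly dim and no median over genes of like signal was taken, 0.83 is not read as a rise of the family. The SE of a member ranged from 0.29 to 1.25, and the 95% interval of the 21 probe sets under background spanned a median of 3.99 log2 units. No member lay above background on all 6 arrays, so no genes of like pattern were sought.

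**Figure D3:**
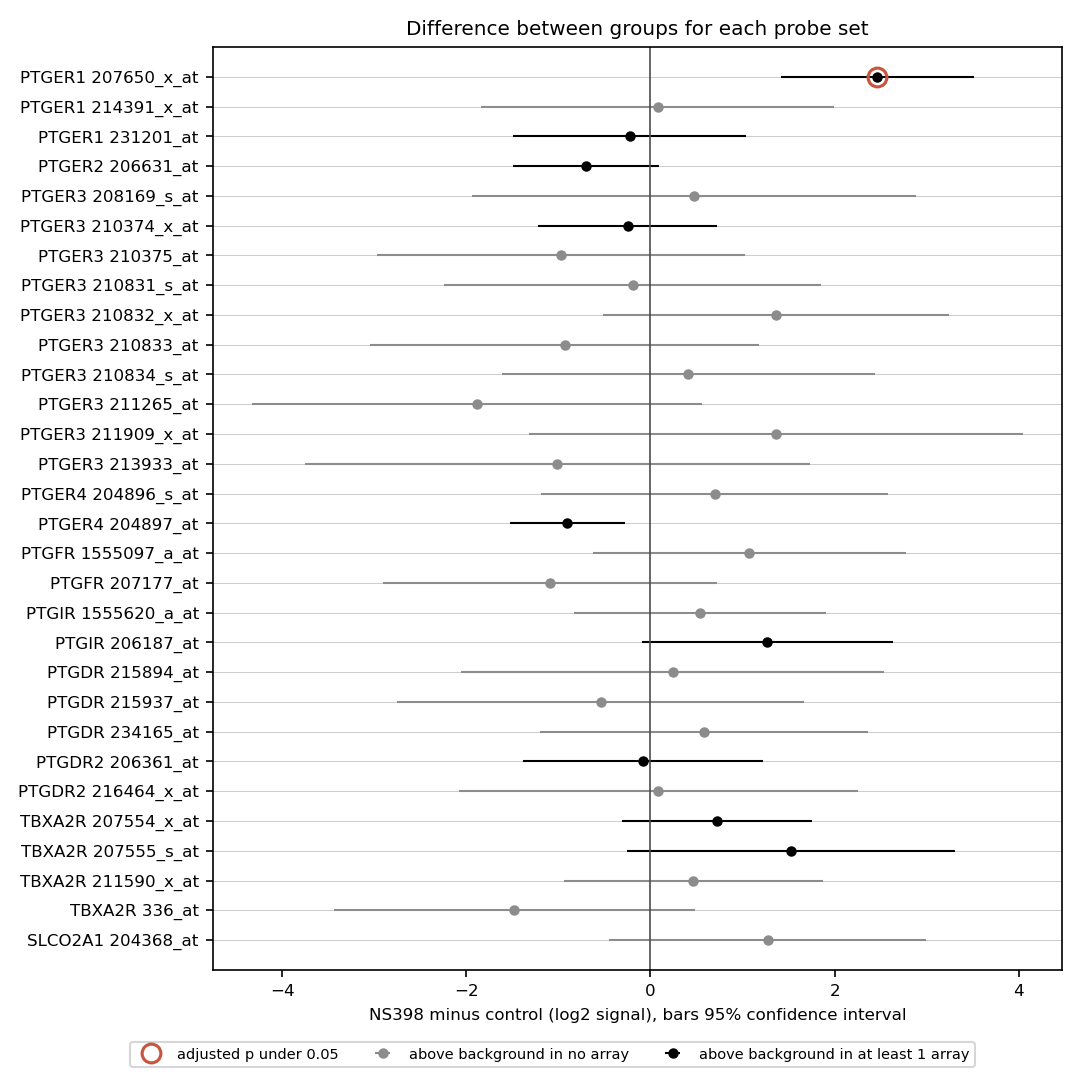
Difference of each of the 30 probe sets (rows), as log2 signal of NS398 minus that of control arrays, with its 95% confidence interval from the variance-trend fit. Black marks probe sets above background on at least 1 array, grey those above it on none, and the red ring the one probe set past the threshold, PTGER1 207650_x_at (2.46). All intervals but those of PTGER1 207650_x_at and PTGER4 204897_at (-1.53 to -0.28) cover 0.

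The genes around the receptors were mostly well measured, except for the carriers, many of which were dim. Over 6 lists that cover synthesis, carriers, G proteins, cyclic AMP signalling, desensitisation and induced genes, 93 genes were measured, and 15 passed the variance-trend test (16.1%, against 10.1% of all genes), 10 higher and 5 lower, where 5.23% of all genes were higher and 4.85% lower. By plain limma 1 passed, ABCC2, where 0.0759% of all genes did. Among probe sets whose mean log2 signal exceeded 7, fitted and adjusted alone, 21% passed. That share is not like for like with the 16.1%, which was adjusted over all probe sets. No share over genes of like signal was taken in the main fit, so the 16.1% is not read as an excess. The lists were chosen with earlier results of these data known. The median difference of the 93 genes was 0.08.

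Among 15 enzymes of prostanoid synthesis and breakdown, AKR1C3, which makes prostaglandin F, rose and 0 fell. Its signals were 5410.3, 5143.1 and 6093.3 in control and 21633.9, 17909.6 and 17695 in NS398 arrays. The difference was 1.78 ± 0.11 (SE, limma with variance trend, adjusted p = 1.00e-05). For PTGS2, which encodes COX2, signals were 183.9, 382.9 and 328.4 in control and 147.5, 141.6 and 76.3 in NS398 arrays, without overlap (difference -1.29, adjusted p = 0.0532). For PTGS1, the constitutive enzyme, the difference was -0.53 (adjusted p = 0.377).

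Of 17 other carriers of prostanoids and related organic anions 3 rose and 0 fell, where 5.23% of all genes were higher and 4.85% lower. The list was dim, with 7 genes above background on no array and 5 on all 6. Its median difference of 0.61 is therefore not read as a rise of the carriers. SLCO1B3, an uptake carrier of the same family as SLCO2A1, had signals of 761.2, 214 and 371.2 in control and 3550.5, 2693.8 and 2589.7 in NS398 arrays (difference 2.89 ± 0.35, SE, limma with variance trend, adjusted p = 7.25e-04). The efflux pump gene ABCC3 rose by 0.94 (adjusted p = 0.0017). ABCC2, another efflux pump gene, rose from signals under background to 95.2, 108.3 and 134.5, which is at least 1.44-fold (adjusted p = 0.0023). ABCC4, the pump best known for the release of PGE2, did not pass (difference 0.30, 95% interval -0.08 to 0.67).

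None of 12 G protein alpha subunit genes passed (10 of them above background on all 6 arrays, median -0.14). In the cyclic AMP arm, through which EP2 and EP4 act, 3 of 22 genes rose and 1 fell. The adenylyl cyclase gene ADCY7 rose by 0.88 (adjusted p = 0.0148), the CREB coactivator gene CRTC3 by 0.56 (0.0189) and PRKAR2A, a regulatory subunit of protein kinase A named after its value was seen, by 0.43 (0.0405). RAPGEF3, which encodes the cyclic AMP sensor EPAC1, had signals of 250.5, 345.7 and 326.9 in control and 133.3, 106.4 and 198 in NS398 arrays (difference -1.11, adjusted p = 0.0364).

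Of 13 desensitisation genes only the arrestin gene ARRB1 passed, and it fell by 0.56 on the log2 scale (limma with variance trend, adjusted p = 0.0233).

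Genes known to be induced by PGE2 or cyclic AMP moved both ways, with 3 of 17 higher, 3 lower and a median of -0.01. The angiogenic factor gene VEGFA rose by 1.36 (adjusted p = 5.62e-05) and EREG, an EGF receptor ligand gene, by 1.52 (2.95e-04), while the immediate early gene FOS fell by 1.03 on the log2 scale (0.00236). DUSP1 (-1.13), EGR1 (-0.67) and PPARGC1A (0.58), named after their values were seen, passed too. Markers of other cell types that could carry prostanoid receptors were mostly dim, with 8 of 9 endothelial markers under background on every array. Among 12 fibroblast and smooth muscle markers LUM rose, at least 2.79-fold over background, and 0 fell. COL1A1 and ACTA2 were above background on all 6 arrays, and FAP on all 3 control arrays and 1 NS398 array. COL3A1, PDGFRB, MYH11 and CNN1 were under background on every array. The summed signal of the list was 944.8 to 1218 in control and 1157 to 1391 in NS398 arrays. The part of such cells in the receptor signals was not tested.

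**Figure D4:**
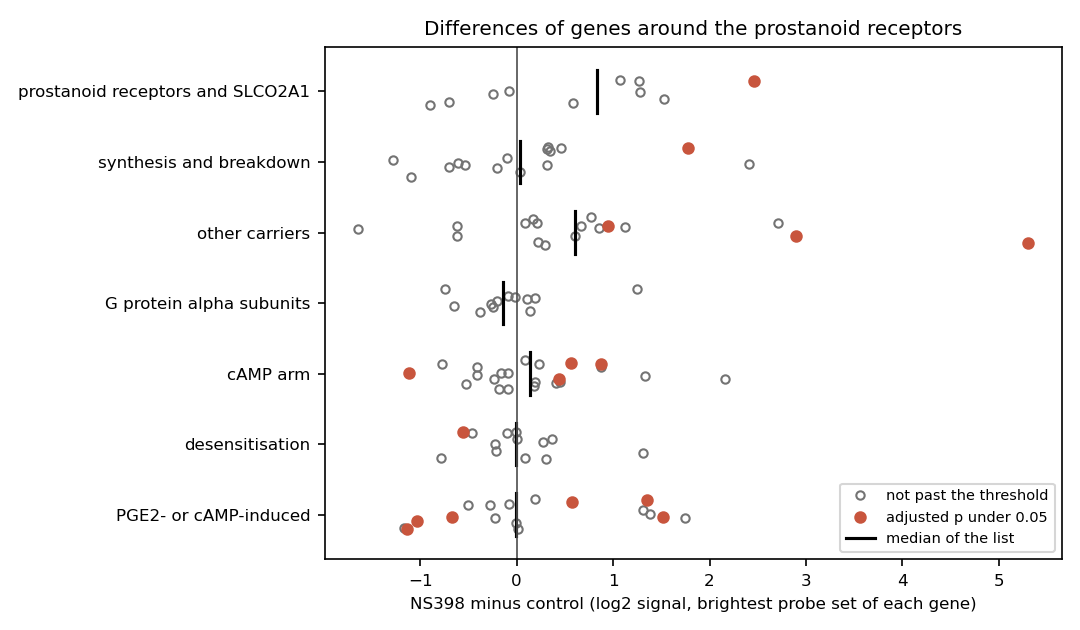
Difference of each measured gene (points, brightest probe set), NS398 minus control on the log2 scale, for the receptors and transporter and for 6 lists of surrounding genes. Filled red points passed an adjusted p of 0.05, open points did not, and black bars are list medians. One receptor point is filled (PTGER1, 2.46), and the median of the receptor list, whose genes were mostly dim, is 0.83.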

How the data were processed

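Total RNA of 6 HT29 samples was hybridised, 1 array each. The deposited values are linear intensity values per probe set, with the same trimmed mean on each array (500.0 after removal of 2% at each end). Equal trimmed means and unequal medians differ from the quantile-normalised gcRMA values of the study's methods, and how the authors made the deposited values is not given in the sources used here. The submitters' processing notes name affy, with no version.

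Gene symbols came from the platform annotation, with symbols updated by Entrez number through RefSeq (41097 probe sets named 1 gene, 1801 several and 11777 none). Log2 signals were fitted with lmFit and eBayes of limma 3.58.1 (R 4.3.3) with a robust variance trend (prior degrees of freedom 7.07, median), treatment as the only term, and Benjamini-Hochberg adjustment over 54675 probe sets (threshold 0.05). Plain limma had 1.36 prior degrees of freedom. A gene was read from its probe set with the highest mean log2 signal. Signals in the text are single arrays or geometric means. Where no array of a group exceeded background, the fold is a bound of the mean against that level, without the spread among arrays. Both limma fits were also run on simulated data whose spread depended on the mean signal alone. That is the setting which the variance trend assumes, so the simulation cannot decide between the fits. Named genes were all members, PTGS1, PTGS2, up to 3 genes with the smallest p among those called in each list, and the 3 genes most like each member above background on all 6 arrays (none qualified).

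The members and lists were chosen with earlier results of these data known. Alternatives were plain limma, SAM, median centring, quantile normalisation, limits on dim probe sets (mean log2 above 4 or 7), an offset of 32, array weights, the replicate number as a block, averaging a gene over its probe sets, and leaving out each array. Raising signals to the background level was chosen after seeing the data. Protein sequences were not used here, and 1 list of signalling genes is not reported here. Figures were drawn with matplotlib 3.10.9.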

Additional observations from a re-analysis of the deposited data

How the results depend on the processing

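PTGER1 kept its direction under all 16 alternatives in which it was fitted, of which 1 averaged its 3 probe sets (0.77), and its call in 11. Its difference was 1.86 to 2.86 without single arrays. PTGER2 and PTGER4 stayed lower, PTGIR, TBXA2R and SLCO2A1 stayed higher, and of these only PTGER4 passed in any alternative, but their sizes moved. TBXA2R (1.53) was 0.39 without control replicate 3, 2.37 without control replicate 2 and 0.31 when averaged over its probe sets. SLCO2A1 (1.28) was 0.51 without control replicate 1 and 0.54 with the offset, PTGIR (1.27) was 0.68 without control replicate 2 and 0.72 with the offset, PTGER2 (-0.70) was -0.38 with signals raised to the background level, and PTGER4 (-0.90) was -0.10 when averaged over its probe sets. The number of member genes called was 1, and it was 0 by plain limma, by the SAM statistic and when a gene was averaged over its probe sets, 2 with signals raised to the background level, and 0 to 1 without single arrays. Over the array 3513 probe sets were called, 24 by plain limma, 1 by the SAM statistic and 1826 to 3984 without single arrays. Of the list genes, 1 passed plain limma. Members above background on all arrays of a group were 4, and 2 with the 99th percentile or with a log2 signal of 7 as the limit. Signs turned for members under background on all arrays but at most 1: PTGDR2 (0.0094 with the offset, 0.0046 with the mean of probe sets, -0.53 to 0.49 without single arrays), PTGFR (-0.0087 with the mean of probe sets), PTGER3 (-0.47 to 0.0043 without single arrays) and PTGDR (-0.0622 to 1.17 without single arrays). The cause was not tested.

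The labels number the arrays of each group, but whether the numbers pair them is not given. Deviations from the group means of same-numbered arrays correlated at -0.14, -0.06 and -0.10 across those probe sets whose mean log2 signal exceeded 7. With so few arrays, each centred on its own group mean, these correlations cannot decide whether cultures were paired. With the replicate block, 2462 probe sets and 1 member gene were called.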
